A study of Mus musculus with 24 samples.

Results

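The enzymes of glycolysis and of the tricarboxylic acid (TCA) cycle were followed as 38 named mouse genes among the 36528 genes counted in each library. They were 14 glycolytic genes from hexokinase 1 to pyruvate kinase, 2 lactate dehydrogenase genes, 6 genes of the mitochondrial pyruvate carrier and the pyruvate dehydrogenase complex, and 16 TCA cycle genes from citrate synthase to malate dehydrogenase. The rule lists the genes by name and uses no measured value. All 38 were found, and 36 had enough reads to be tested. Mpc1, a subunit of the pyruvate carrier, and Suclg2, the GDP-forming succinyl-CoA ligase subunit, were too low: their highest libraries reached 2.68 and 3.54 CPM, the reads of a gene scaled to a common library size.

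The libraries came from neurons that were dissociated with papain from adult mouse cortex and sorted as DAPI-negative cells carrying GFP or tdTomato. The series holds 24 of them, 6 for each of 4 subtypes labelled EXC, PV, SST and VIP. EXC and SST had 4 male and 2 female libraries, PV 3 of each and VIP 2 male and 4 female. Sequencing pools divided the subtypes: POOL6188 held all 6 PV libraries and EXC replicates 1, 2, 4, 5 and 6, POOL7098 held SST replicates 1, 2, 3, 4 and 6 and VIP replicates 1 and 3, POOL7099 held EXC replicate 3 and VIP replicates 2, 4, 5 and 6, and POOL7100 held SST replicate 5. The labels name neither the transgenic lines nor strain, age in weeks or the animals behind a library, so a p-value speaks for the spread among the libraries and not for animals. All groups went through the same dissociation and sort, each with a fluorescent reporter.

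Glycolysis splits glucose in the cytosol into pyruvate and yields a little ATP and NADH. Pyruvate is either reduced to lactate by lactate dehydrogenase or carried into mitochondria, where pyruvate dehydrogenase turns it into the acetyl-CoA that the TCA cycle oxidises for the respiratory chain. Cytosolic NADH reaches mitochondria through the malate-aspartate and glycerol phosphate shuttles. Fast-spiking interneurons that express parvalbumin are known for dense mitochondria and high energy use, while astrocytes are known for strong glycolysis and lactate release.

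Markers of the sorted class were high in each group. The summed level of 7 excitatory markers was 2258 to 5756 CPM in EXC and at most 1219 CPM elsewhere, and that of 7 GABAergic markers was 4412 to 7415 CPM in the interneuron groups and at most 923 CPM in EXC. EXC replicate 3 had the lowest excitatory sum and the highest GABAergic sum of its group. The lists of 4 markers for PV, SST and VIP were each highest in their own group, without overlap with other libraries. Total reads per library ran from 1548907 to 15978459, and reads on nuclear genes from 729778 to 15274524. Mitochondrially encoded genes took 14.4% to 52.9% of reads in PV and 1.80% to 16.6% in the other libraries. They were left out of every total used here. Levels of single genes below are CPM of nuclear-gene reads with TMM scaling, and log2 fold changes are given with their standard error. Marker sums, above and below, are plain CPM of nuclear-gene reads without TMM scaling.

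PV libraries gave the largest share of their reads to both pathways, and the difference was larger for the TCA cycle. The 14 glycolytic genes together took 0.319% ± 0.0267 (SD, n = 6) of nuclear-gene reads in PV, against 0.214% ± 0.0208 in SST, 0.191% ± 0.0579 in EXC and 0.154% ± 0.0359 in VIP. The 16 TCA cycle genes took 0.508% ± 0.0392 in PV, 0.270% ± 0.0194 in SST, 0.191% ± 0.0536 in EXC and 0.185% ± 0.0361 in VIP. PV exceeded EXC 1.67-fold for glycolysis and 2.66-fold for the TCA cycle, and 1.51-fold and 2.43-fold within POOL6188. Every PV library lay above every other library for both sums. In sorted bulk samples, fewer cells of a type and less RNA per cell cannot be told apart.

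**Figure D1:**
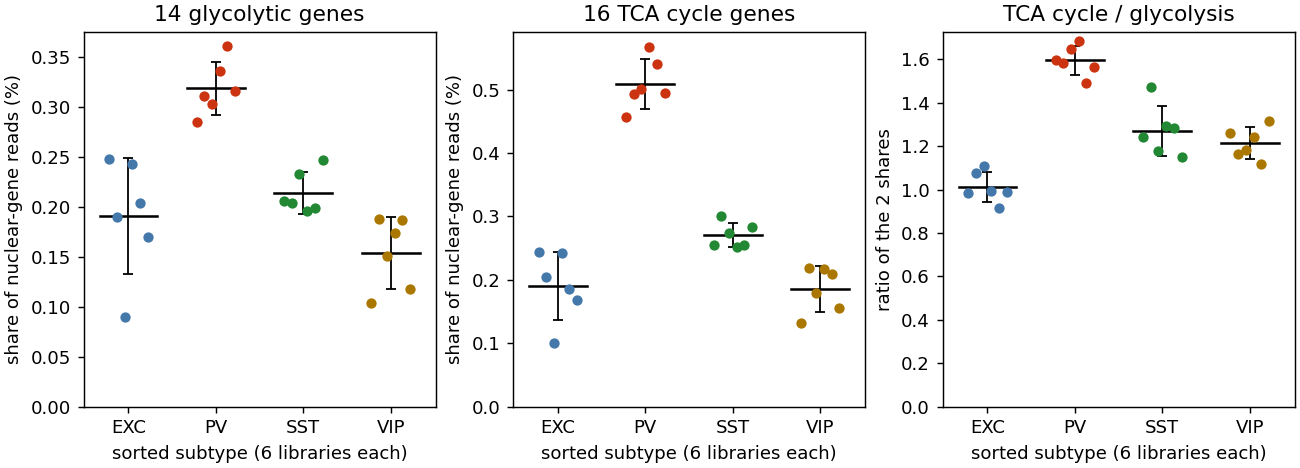
Share of nuclear-gene reads (percent) taken by the 14 glycolytic genes and by the 16 TCA cycle genes, and the ratio of the second share to the first, by sorted subtype. Points are libraries, lines are means and bars are SD (n = 6). The ratio lies between 1.49 and 1.69 in PV, above all other libraries, and between 0.914 and 1.11 in EXC.

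The balance of the pathways also differed by subtype. The ratio of TCA cycle reads to glycolytic reads was 0.914 to 1.11 in EXC, 1.12 to 1.32 in VIP, 1.15 to 1.47 in SST and 1.49 to 1.69 in PV. EXC libraries lay below every interneuron library, PV libraries lay above every other library, and SST and VIP overlapped. A few abundant genes weigh heavily in these sums: Eno2 made up 32.9% of glycolytic reads in EXC and 38.6% in PV, and Mdh1 made up 14.95% of TCA cycle reads in EXC and 29.4% in PV. Mdh1 encodes the cytosolic enzyme but is listed with the cycle, and neither separation holds without its reads. PV replicate 5 had 21508 TCA cycle reads, 6322 of them Mdh1, and 14402 glycolytic reads. SST replicate 2 had 27637, 6881 and 18778, and without Mdh1 its ratio is the higher of these libraries. EXC replicate 3 had 3941, 530 and 3549. Without Mdh1 its ratio passes that of SST replicate 6, which had 43335, 10201 and 37728. The geometric mean over genes, which weighs each gene equally, gave ratios of 1.37 ± 0.257 in EXC and 1.95 ± 0.127 in PV. On that measure EXC replicate 3, at 1.88, lay inside the PV range of 1.75 to 2.12. EXC, at 1.19 to 1.88, then no longer lay below SST (1.39 to 1.65) and VIP (1.21 to 1.51). The geometric mean takes in Suclg2, which was too low to be tested, with an offset for libraries without a read. Suclg2 was 2.24 CPM in EXC replicate 3 and 0 to 3.54 CPM in PV. PV replicate 5, with the lowest PV ratio, had no Suclg2 read. The overlap of EXC replicate 3 with PV rests on this gene.

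PV was compared with EXC first, since this pair can be read within 1 sequencing pool. Of the 36 genes tested, 28 were higher in PV and 3 were lower at an adjusted p under 0.05 (edgeR quasi-likelihood test, Benjamini-Hochberg over 15120 genes). Over all genes tested, 20.1% were higher and 25.2% lower. The median log2 fold change was 1.02 for the 36 genes and -0.13 for all genes. By pathway, 15 of 15 TCA cycle genes and 5 of 5 pyruvate genes were higher, with median log2 fold changes of 1.06 and 0.97, against 7 of 14 glycolytic genes, with a median of 0.73 and with 2 lower. The libraries of the 2 groups did not overlap for 24 genes with PV above (background 10.9%) and for 1, Pfkp, with PV below (12.1%). Within POOL6188, all 30 calls among the 34 genes testable there were kept, against a background of 21.1% higher and 23.7% lower.

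**Figure D2:**
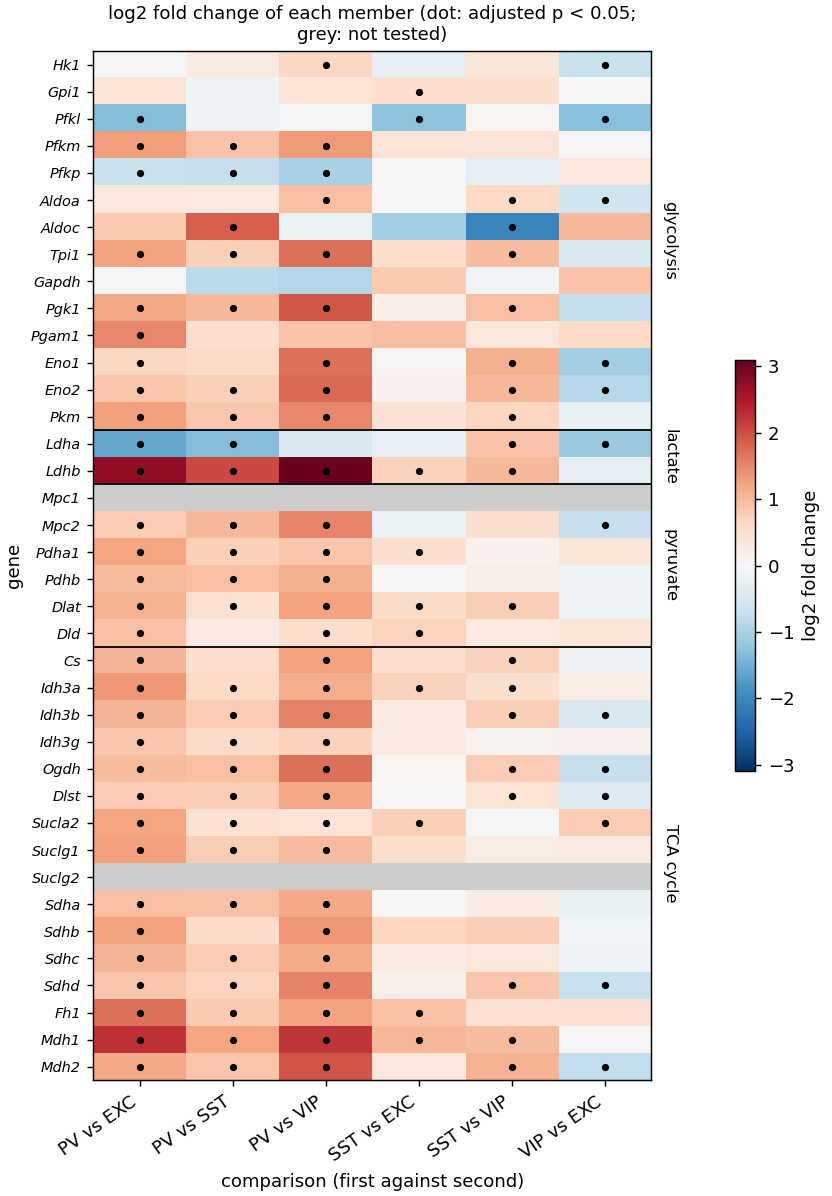
Log2 fold change (colour) of each gene (rows, ordered by pathway step) in the 6 pairwise comparisons of subtypes (columns, first against second). Dots mark an adjusted p under 0.05 and grey marks the 2 genes not tested. The 15 tested TCA cycle genes all carry a dot in PV against EXC, while glycolysis holds dots in both directions.

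From Tpi1 to Pkm, the later steps of glycolysis, 6 of 7 genes were higher in PV (background 20.1%). The exception was Gapdh, at only 0.447 to 2.45 CPM in the 2 groups, too low to speak for its step. This stretch is not one of the listed sets and was chosen with the calls known. Among the 6, the calls of Eno1 and Pgam1 were lost when single libraries were left out, as given below. Pkm, the pyruvate kinase that ends glycolysis, was 58.5, 166 and 222 CPM (lowest, median and highest library) in EXC and 332, 399 and 481 CPM in PV. The groups did not overlap. Eno2, the neuronal enolase, was 287, 722 and 861 CPM in EXC and 1119, 1174 and 1408 CPM in PV, and again no library overlapped. The log2 fold change was 1.27 ± 0.23 for Pkm (edgeR adjusted p = 4.52e-05) and 0.86 ± 0.18 for Eno2 (edgeR adjusted p = 0.000384). Tpi1, triosephosphate isomerase, and Pgk1, the first ATP-forming step, were also higher in PV.

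The phosphofructokinases, which catalyse the committed step of glycolysis, differed in opposite directions. Pfkm, the muscle-type isozyme, was 48.5, 107 and 127 CPM in EXC and 210, 227 and 346 CPM in PV, a log2 fold change of 1.29 ± 0.21 (edgeR adjusted p = 1.49e-05). Pfkl, the liver type, was 37.6, 75.7 and 111 CPM in EXC and 20.4, 30.4 and 39.1 CPM in PV, a log2 fold change of -1.34 ± 0.25 (edgeR adjusted p = 0.000102). Pfkp, the platelet type, was 155 to 219 CPM in EXC and 81.3 to 142 CPM in PV, a log2 fold change of -0.69 ± 0.18 (edgeR adjusted p = 0.00268). Only for Pfkl did the 2 groups share part of their range.

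Hk1, Gpi1, Aldoa, Aldoc and Gapdh did not pass the test in this pair. Hk1, the main brain hexokinase, had a log2 fold change of -0.03 ± 0.24, and Aldoa, aldolase A, 0.32 ± 0.23. Eno1, the non-neuronal enolase, was called at 0.64 ± 0.25 (edgeR adjusted p = 0.0377), but the call was lost without EXC replicate 2, 3 or 5, PV replicate 2, 4 or 5, SST replicate 5 or 6, or VIP replicate 6, with an edgeR adjusted p of up to 0.094, without EXC replicate 3. Within POOL6188 it was kept at 0.46 (edgeR adjusted p = 0.0202). Pgam1, phosphoglycerate mutase, was called at 1.48 ± 0.45 (edgeR adjusted p = 0.00937) at only 0.498 to 7.24 CPM in the 2 groups, and the call was lost without PV replicate 2 (1.03, edgeR adjusted p = 0.0803).

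Aldoc, aldolase C, is also known from astrocytes, and its libraries spread widely in EXC. It was 1.99, 27.7 and 132 CPM there and 70.1, 77.4 and 81.3 CPM in PV, a difference that did not pass the test (log2 fold change 0.81 ± 0.50). Without EXC replicate 6 it was 1.63 (edgeR adjusted p = 0.00431). The summed level of 10 astrocyte markers was 990 to 5092 CPM in EXC, highest in replicate 6, 396 to 1095 CPM in PV, 283 to 497 CPM in SST and 1325 to 1960 CPM in VIP. All 10 were detected in each group, and their part in the Aldoc values was not tested.

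The 2 lactate dehydrogenase genes differed in opposite directions. Ldhb, whose subunit favours the oxidation of lactate to pyruvate, was 14.9, 51.8 and 67.7 CPM in EXC and 270, 326 and 387 CPM in PV. Ldha, whose subunit favours lactate formation, was 46.6, 96.5 and 130 CPM in EXC and 21.2, 28.7 and 47.9 CPM in PV. PV libraries were all above EXC for Ldhb, while for Ldha the highest PV library just passed the lowest EXC library. The log2 fold change was 2.75 ± 0.25 for Ldhb (edgeR adjusted p = 9.46e-10) and -1.60 ± 0.22 for Ldha (edgeR adjusted p = 1.13e-06). Within POOL6188 they were 2.58 and -1.72.

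The promoters of these 2 genes and of Mdh1 are shown because Ldhb and Mdh1 had the highest and Ldha the lowest log2 fold change of the 36 genes in this pair. Each window runs from 250 bases before to 50 bases after a RefSeq start (GRCm38.p6), 5′ to 3′ on the gene's own strand. Capitals mark ACGTG on either strand, 1 form of the core letters of the hypoxia response element. Other forms of that core were not searched, so a window without ACGTG may still hold one. CACGTG reads the same on both strands and was counted as 1 place. The windows are chr7:46845554-46845853 on the plus strand for Ldha, chr6:142507908-142508207 on the minus strand for Ldhb and chr11:21571885-21572184 on the minus strand for Mdh1.
Ldha: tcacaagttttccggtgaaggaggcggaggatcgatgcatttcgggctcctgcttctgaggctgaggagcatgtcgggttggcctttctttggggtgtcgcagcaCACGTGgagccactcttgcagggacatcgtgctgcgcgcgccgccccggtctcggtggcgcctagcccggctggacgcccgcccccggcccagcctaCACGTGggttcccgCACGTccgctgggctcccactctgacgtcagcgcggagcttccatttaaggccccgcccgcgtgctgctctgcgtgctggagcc
Ldhb: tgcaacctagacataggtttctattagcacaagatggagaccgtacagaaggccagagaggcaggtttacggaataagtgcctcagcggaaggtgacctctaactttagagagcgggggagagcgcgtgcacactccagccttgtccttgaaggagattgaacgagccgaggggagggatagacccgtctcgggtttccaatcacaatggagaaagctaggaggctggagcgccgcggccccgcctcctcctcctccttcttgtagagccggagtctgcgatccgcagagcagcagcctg
Mdh1: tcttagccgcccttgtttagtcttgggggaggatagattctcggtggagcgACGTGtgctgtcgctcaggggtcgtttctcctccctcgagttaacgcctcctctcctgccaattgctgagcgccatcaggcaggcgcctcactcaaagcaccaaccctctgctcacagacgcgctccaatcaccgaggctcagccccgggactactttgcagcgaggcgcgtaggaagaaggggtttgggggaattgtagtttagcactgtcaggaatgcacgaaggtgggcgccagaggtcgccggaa
ACGTG stood at 3 places in this Ldha window, at none in a second Ldha window and in the Ldhb window, and at 1 in the Mdh1 window. It was found in 19.6% of all 32851 promoter windows and in 21 of the 53 windows of the 36 listed genes that had one. Several of the 21 were overlapping windows of Ogdh, so the same letters were counted more than once. By gene, 8 of 14 glycolytic genes and 4 of 14 TCA cycle genes held it in at least 1 window, against 21.8% of all genes. The listed genes had more windows each, 24 for the glycolytic and 19 for the TCA cycle genes, against 32851 for all 27025 genes. More windows give more room for a match. AAGGTCA, the letters of the oestrogen-related receptor site, was in 4 of the 53 windows and 4.72% of all windows. The windows of Pfkl and Pfkp, the other listed genes called lower in PV, are not printed and held neither of these runs of letters. The ACGTG sites of Ldha were therefore not shared by the genes lower in PV. A match describes letters only.

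All 5 tested pyruvate genes and all 15 tested TCA cycle genes were higher in PV. Pdha1, the catalytic subunit of pyruvate dehydrogenase, was 69.5, 130 and 145 CPM in EXC and 243, 269 and 372 CPM in PV. Mpc2, the partner of Mpc1 in the pyruvate carrier, was 35.2, 49.6 and 67.9 CPM in EXC and 66.1, 87.2 and 108 CPM in PV, with a small overlap. Cs, citrate synthase, was 54.0, 218 and 235 CPM in EXC and 361, 385 and 469 CPM in PV. No Pdha1 or Cs library of PV fell within the EXC range.

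Mdh1 and Fh1 had the largest fold changes among the genes listed for the cycle. Mdh1, the cytosolic malate dehydrogenase, was 132, 318 and 426 CPM in EXC and 1269, 1479 and 1645 CPM in PV, a log2 fold change of 2.27 ± 0.19 (edgeR adjusted p = 2.24e-10). Fh1, fumarase, was 14.9, 27.3 and 47.3 CPM in EXC and 67.3, 92.5 and 138 CPM in PV, a log2 fold change of 1.71 ± 0.20 (edgeR adjusted p = 1.18e-07). The lowest PV library lay above the highest EXC library for both. The other 13 tested TCA cycle genes lay between 0.78 (Dlst, the E2 subunit of oxoglutarate dehydrogenase) and 1.34 (Idh3a, the catalytic subunit of NAD-linked isocitrate dehydrogenase). The 4 subunits of succinate dehydrogenase, which also sits in the respiratory chain, were close together, at 0.94 for Sdha, 1.25 for Sdhb, 1.05 for Sdhc and 0.85 for Sdhd.

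Malate dehydrogenase also serves the malate-aspartate shuttle, and the genes of that shuttle were higher in PV while those of the glycerol phosphate shuttle were lower. This grouping was chosen after the values were seen. Got1, the cytosolic aspartate aminotransferase, was 116, 273 and 412 CPM in EXC and 1058, 1152 and 1420 CPM in PV, and Mdh2, Got2 and the carriers Slc25a11 and Slc25a12 were called higher as well. The second aspartate carrier gene, Slc25a13, at 0 to 5.96 CPM in the 2 groups, was not called. Gpd1, the cytosolic glycerol phosphate dehydrogenase, was 62.0, 115 and 138 CPM in EXC and 2.20, 4.16 and 6.47 CPM in PV. Gpd2, its mitochondrial partner, was 180, 342 and 375 CPM in EXC and 41.3, 47.3 and 61.7 CPM in PV. Log2 fold changes were -4.66 ± 0.34 for Gpd1 (edgeR adjusted p = 1.1e-11) and -2.72 ± 0.17 for Gpd2 (edgeR adjusted p = 7.56e-13), with no overlap of libraries.

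**Figure D3:**
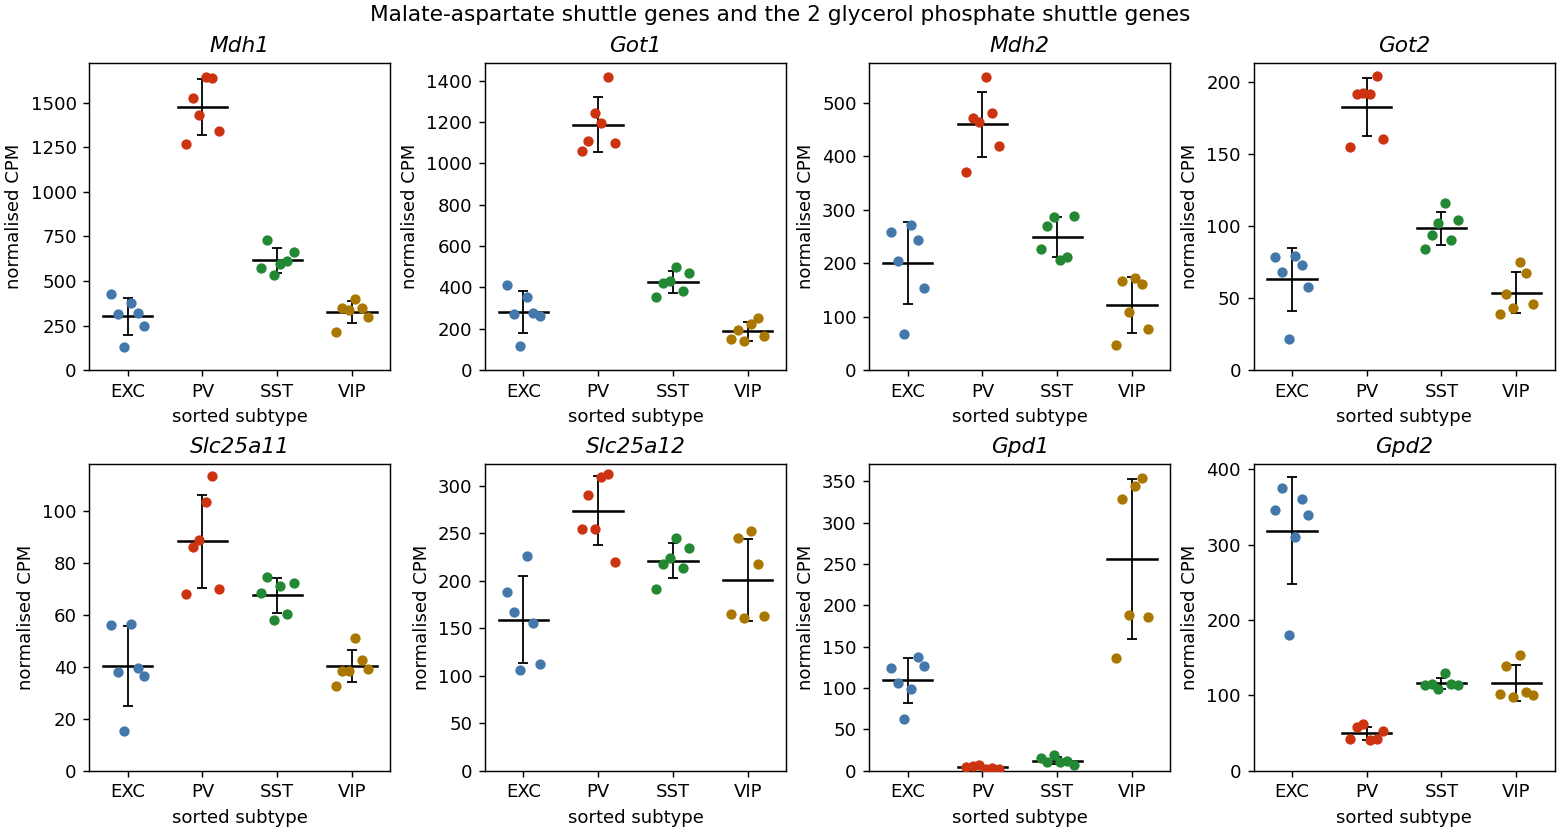
Normalised level (CPM of nuclear-gene reads) of 6 malate-aspartate shuttle genes and of Gpd1 and Gpd2 of the glycerol phosphate shuttle in each library, by sorted subtype. Lines are means and bars are SD (n = 6). PV libraries are the highest for Mdh1, Got1, Mdh2 and Got2 and the lowest for Gpd1 and Gpd2.

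Gpd1 also separated the interneurons from each other. It was 6.92 to 19.6 CPM in SST and 137 to 354 CPM in VIP, so that these groups did not overlap, while VIP shared the top of the EXC range. Gpd2 did not follow it: SST (108 to 130 CPM) and VIP (98.0 to 154 CPM) overlapped, both below every EXC library and above every PV library. Summed oligodendrocyte markers were 92.5 to 256 CPM in SST. In VIP they were 463, 337 and 915 CPM in replicates 2, 4 and 5, the highest for Gpd1, and 65.6, 145 and 61.1 CPM in replicates 1, 3 and 6. In EXC, replicate 2 was highest for them, at 3446 CPM, but replicate 5 was highest for Gpd1. Their part in the Gpd1 values was not tested.

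A wider list of 60 genes around the 2 pathways (transporters, minor isozymes, regulators, shuttle and pentose phosphate genes), of which 55 were tested, held calls in both directions in PV against EXC. Of the 55, 20 were higher (36.4%, background 20.1%) and 10 lower (18.2%, background 25.2%). The median log2 fold change was 0.46, against -0.13 for all genes. Hk2, the inducible hexokinase, was 1.99 to 6.26 CPM in EXC and 0 to 1.32 CPM in PV, where all 3 of its reads came from 1 library (edgeR adjusted p = 0.000601). Slc16a3, a lactate exporter, was 0 to 1.04 CPM in EXC and had no read in PV, whose libraries were shallower (729778 to 3984053 nuclear-gene reads, against 3939632 to 8049552 in EXC; edgeR adjusted p = 0.0282, and 0.0518 without PV replicate 5).

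Values that moved with the PV group are given once. The share of mitochondrially encoded reads was higher in PV, as above, and without PV replicates 1 and 6, where it was highest, 27 genes were higher and 3 lower than in EXC. The median log2 fold change was then 1.01 for the listed genes and -0.17 for all genes. Summed ciliated ependymal markers were 49.2 to 232 CPM in PV and at most 3.16 CPM elsewhere, and oligodendrocyte markers were 96.2 to 3446 CPM in EXC and 140 to 544 CPM in PV. Without EXC replicates 2 and 6, the highest for oligodendrocyte markers, 28 were higher and 3 lower. The medians were then 0.99 for the listed genes and -0.16 for all genes. The shares of all genes called in these 2 fits are not given. The part of the ependymal markers was not tested.

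SST and VIP interneurons were compared next, with 17 of 36 genes higher in SST and 1 lower. The background was 14.5% higher and 16.6% lower. The 2 groups did not overlap for 15 genes with SST above (background 10.7%) and for Aldoc with SST below (10.2%), and the median log2 fold change was 0.49 for the 36 genes and 0.00 for all genes. By pathway, 6 of 14 glycolytic genes, both lactate dehydrogenase genes, 1 of 5 pyruvate genes and 8 of 15 TCA cycle genes were higher in SST, and Aldoc was lower. The sum of glycolytic reads was 1.39-fold and that of TCA cycle reads 1.46-fold that of VIP, with no overlap of libraries.

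Eno1 was 15.8, 22.1 and 41.7 CPM in VIP and 47.1, 56.8 and 65.7 CPM in SST, a log2 fold change of 1.10 ± 0.25 (edgeR adjusted p = 0.0016). Mdh2, the mitochondrial malate dehydrogenase, was 46.6, 135 and 172 CPM in VIP and 206, 249 and 288 CPM in SST, a log2 fold change of 1.08 ± 0.28 (edgeR adjusted p = 0.00425). Aldoc went the other way, at 39.7, 90.2 and 130 CPM in VIP and 16.04, 19.8 and 30.8 CPM in SST, a log2 fold change of -2.06 ± 0.53 (edgeR adjusted p = 0.0043). None of the 3 genes overlapped between the groups. The summed astrocyte markers given above were also higher in VIP than in SST, as were 3 oligodendrocyte precursor markers (18.7 to 27.7 CPM in VIP and 1.11 to 3.80 CPM in SST), and their part was not tested. Eno2 and Ldhb were both 1.02 higher on the log2 scale in SST.

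Within 1 pool, most values were larger. In POOL7098, with 5 SST and 2 VIP libraries, all 18 calls were kept, the median log2 fold change of the glycolytic genes was 1.02 in place of 0.47, and Pfkp was lower in SST as well as Aldoc (background 20.7% higher and 21.4% lower). VIP replicate 1, in that pool, was the lowest VIP library for 20 of the 36 genes. Aldoa was called at the border (0.62 ± 0.24, edgeR adjusted p = 0.0498) and lost its call with DESeq2 (0.55, adjusted p = 0.0515), with other scalings, and without EXC replicate 6, any 1 SST library or VIP replicate 1, 2, 3 or 6 (edgeR adjusted p up to 0.124, without VIP replicate 1). Of the 55 tested genes of the wider list, 9 were higher in SST (16.4%, near the background of 14.5%) and 5 lower (background 16.6%), led by Gpd1 at -4.43 ± 0.30 (edgeR adjusted p = 5.55e-12). Slc2a13, a proton-coupled inositol transporter, was 358 to 508 CPM in SST and 1198 to 1773 CPM in VIP (-1.60 ± 0.14, edgeR adjusted p = 1.68e-09).

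The other 4 pairs cross sequencing pools, and for them pool and subtype cannot be told apart. EXC replicate 3 is the only EXC library outside POOL6188 and alone links PV to the other interneurons, and it was the lowest EXC library for 28 of the 36 genes. PV against SST gave 24 genes higher and 2 lower (background 11.2% and 14.7%), and with pool in the model 1 higher and 12 lower (7.22% and 14.5%). PV lay above SST without overlap for 21 genes (8.94%) and below for 2 (11.6%). PV against VIP gave 29 higher and 1 lower (background 21.7% and 26.5%), and with pool in the model 1 higher and 4 lower (4.93% and 10.5%). PV lay above VIP without overlap for 26 genes (13.2%) and below for 1 (14.3%). The values below are those without the pool term.

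Against SST, PV was higher for Ldhb at 2.05 ± 0.24 on the log2 scale (edgeR adjusted p = 3.11e-07), Aldoc at 1.86 ± 0.52 (edgeR adjusted p = 0.00847), Mdh1 at 1.23 ± 0.19 (edgeR adjusted p = 1.09e-05) and Mpc2 at 1.00 ± 0.21 (edgeR adjusted p = 0.000614), and lower for Ldha at -1.34 ± 0.22 (edgeR adjusted p = 3.13e-05). With pool in the model Ldhb stood at -0.38, Aldoc at -3.71 and Mdh1 at -0.38. Against VIP, the largest differences were Ldhb at 3.07 ± 0.26 (edgeR adjusted p = 2.63e-10), Mdh1 at 2.22 ± 0.19 (edgeR adjusted p = 4.81e-10) and Mdh2 at 1.95 ± 0.28 (edgeR adjusted p = 3.11e-06). With pool in the model Mdh2 stood at -0.0084.

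SST against EXC gave 9 genes higher and 1 lower (background 17.1% and 21.2%), and with pool in the model 26 and 0 (18% and 14.6%). The libraries lay apart for 4 genes with SST above (9.19%) and for none with SST below (8.9%). Mdh1, at 532 to 727 CPM in SST and 132 to 426 CPM in EXC, was 1.03 ± 0.18 higher on the log2 scale (edgeR adjusted p = 6.42e-05), and Pfkl was -1.24 ± 0.24 (edgeR adjusted p = 0.000198). VIP against EXC gave 1 gene higher and 12 lower (background 18.4% and 20.6%), and with pool in the model 12 and 0 (13.5% and 11.2%). With plain shares it gave 4 and 7, against 3128 and 2671 of all 15120 genes. With DESeq2's size factors it gave 3 and 12, against 2885 and 2966 of all 15120 genes. The libraries lay apart for 1 gene with VIP above (7.97%) and for none with VIP below (9.25%). The gene that was higher was Sucla2, the ADP-forming succinyl-CoA ligase subunit, at 86.4 to 153 CPM in VIP and 59.4 to 76.3 CPM in EXC (0.79 ± 0.17, edgeR adjusted p = 0.000506). Within POOL7099, 4 VIP libraries stood against EXC replicate 3 alone, which is assumed to vary like them, so that its counts, 1 higher and 0 lower (background 3.74% and 2.33%), say nothing about the 12 genes. Comparisons that share EXC or PV libraries are not independent of each other.

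Across all 4 subtypes, 34 of the 36 genes differed in the joint test, against 68.1% of all genes. PV had the highest mean for 29 genes, including all 15 tested TCA cycle genes, all 5 tested pyruvate genes and 8 of 14 glycolytic genes. VIP had the lowest mean for 21. The shares of all genes with such an order were not computed, so these counts only describe the listed genes. The order of PV against SST and VIP crosses pools: with pool in the model the median log2 fold change of the 36 genes was -0.82 against SST, with the sign changed for 26, and -0.017 against VIP, with the sign changed for 16. For 18 genes the 6 PV libraries lay above all 18 others (background 3.98%), and for none did they lie below all others (background 2.92%). Those 18 were 10 TCA cycle, 5 glycolytic and 2 pyruvate genes and Ldhb. The spread was widest in EXC, where the coefficient of variation had a median of 33.7% over the genes, against 23.4% in VIP, 14.8% in PV and 14.2% in SST.

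Isozyme shares compare genes of different length within a library, on the deposited RPKM values, which scale reads by gene length and library size. Each of 30 share comparisons was tested by an exact two-sided permutation test over 12 libraries, adjusted over the 30. The smallest p this design allows is 0.00216. Ldhb made up 92.3% to 95.0% of lactate dehydrogenase RPKM in PV, 54.5% to 61.1% in SST, 42.5% to 67.1% in VIP and 32.1% to 47.8% in EXC. PV stood apart from the other 3 groups without overlap (each adjusted exact permutation p = 0.00649), and the difference from EXC was 52.2 percentage points, and 50.2 within POOL6188. No SST or VIP library is in that pool, so for these 2 groups pool and subtype cannot be told apart here either, nor in the other isozyme shares. SST and VIP differed by 2.84 percentage points, which did not pass (adjusted exact permutation p = 0.562).

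**Figure D4:**
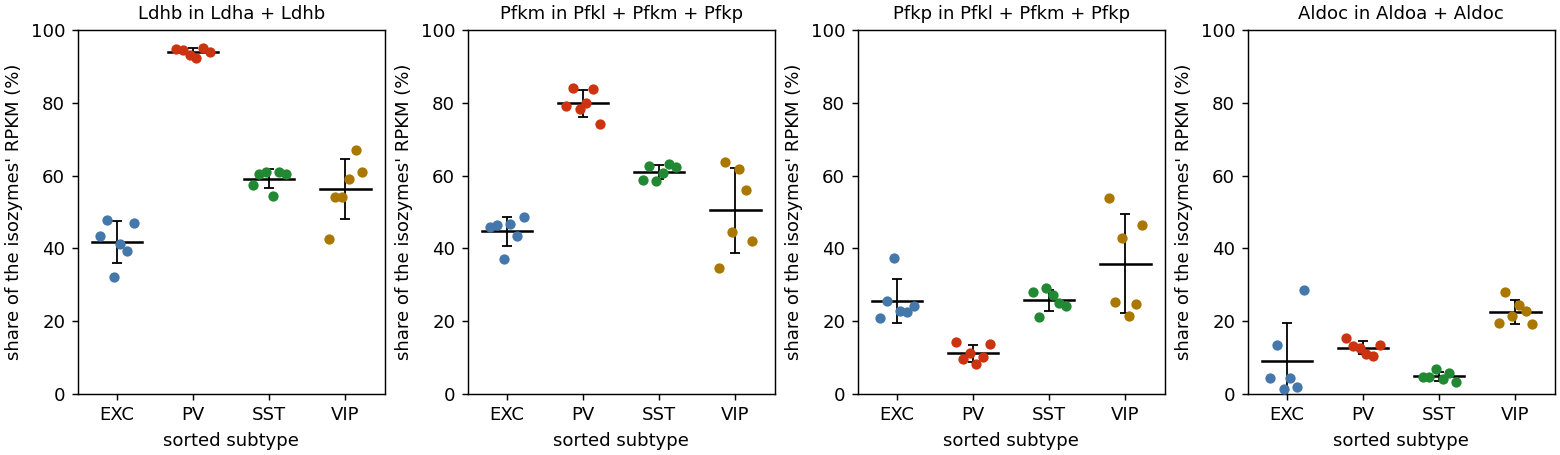
Share of an isozyme in the summed RPKM of its isozyme set (percent) in each library, by sorted subtype. Lines are means and bars are SD (n = 6). The 6 PV libraries lie between 92.3% and 95.0% for Ldhb and at or below 14.2% for Pfkp, apart from all EXC and SST libraries in both.

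Phosphofructokinase mRNA was mostly of the muscle type in PV. Pfkp made up 8.16% to 14.2% of the 3 isozymes in PV, 20.8% to 37.2% in EXC, 21.1% to 29.1% in SST and 21.4% to 53.9% in VIP, and PV was below each of the others (each adjusted exact permutation p = 0.00649). Pfkm made up 74.3% to 84.0% in PV and 37.1% to 48.7% in EXC, a description since its share was not tested on its own. Aldoc made up 10.5% to 15.4% of aldolase RPKM in PV, 3.17% to 6.76% in SST, 19.1% to 27.9% in VIP and 1.35% to 28.6% in EXC. The 3 interneuron groups differed from each other (each adjusted exact permutation p = 0.00649), while no pair with EXC passed. Eno2 held 84.1% to 91.7% of enolase RPKM over all libraries, and no pair differed at the threshold (lowest adjusted exact permutation p = 0.294). Suclg2 held at most a mean of 1.15% of the succinyl-CoA ligase beta subunits, in EXC, and no pair passed.

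Levels of different genes were compared per length. In PV, mean RPKM was 372 ± 33.5 for Mdh1, 178 ± 11.6 for Eno2, 177 ± 21.98 for Mdh2, 145 ± 20.05 for Aldoa, 139 ± 10.3 for Sdha and 123 ± 15.6 for Ldhb. Eno2 and Mdh2, and likewise Aldoa and Sdha, differed by less than their SD, whereas Mdh2 and Aldoa differed by more than either SD, though their libraries overlapped. In EXC, Aldoa led with 115 ± 44.6, followed by Eno2 with 97.5 ± 29.5, Mdh2 with 77.3 ± 27.9 and Mdh1 with 76.8 ± 23.6, none of them apart from its neighbour beyond the SD. Gapdh, glyceraldehyde-3-phosphate dehydrogenase, is among the most abundant mRNAs of most tissues, yet its mean was 0.508 to 1.07 RPKM over the groups.

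Reads were counted only when they aligned uniquely, which matters for genes with close copies. At 97% identity or more over at least 50 bases, 88.0% of the Gapdh transcript has a copy in other genes, 47 of the 49 being pseudogenes. The share was 85.6% for Eno1, 76.8% for Ldhb, 71.2% for Pdhb, 68.8% for Pgk1, 65.5% for Pkm and 43.1% for Pgam1, and it was 0 for 26 of the 38 genes, Ldha, Mdh1 and Fh1 among them. Levels of the genes with copies are therefore uncertain, and so is the Ldhb share.

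No gene of the 36 was called between female and male libraries (0 called by edgeR and by DESeq2, 1 at an unadjusted p under 0.05; background 0.0397%). The subtype-by-sex term also called none of them (0 by edgeR, 0 at an unadjusted p under 0.05). It called 0% of all genes, so neither test shows that the sexes were alike.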

How the data were processed

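RNA-seq libraries of sorted cortical neurons were aligned with GSNAP to GRCm38, per the submitters' processing notes. Per the file headers, the deposited count is the number of reads that aligned uniquely to a gene model, and the deposited RPKM is adjusted by a size factor. The making of that factor, the strand setting and the gene models' version were not stated in the labels or headers. Gene numbers were matched to RefSeq symbols (GRCm38.p6). Genes encoded by mitochondrial DNA (37) were left out. Counts were filtered with filterByExpr, scaled by TMM and fitted in edgeR 4.0.16 (R 4.3.3; quasi-likelihood F test, subtype plus sex, all 24 libraries), with Benjamini-Hochberg adjustment over 15120 genes and a threshold of 0.05. Standard errors are the log2 fold change divided by the square root of F. Summed shares are plain percentages of nuclear-gene reads. Isozyme shares used RPKM and exact permutation tests (scipy 1.17.1). Near copies were searched with BLAST 2.17.0.

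The listed genes, marker lists and tests were chosen with earlier results of these data known. Full statistics are given for up to 5 called listed genes with the largest change per pair and the isozyme sets, and for up to 4 genes of the wider list. Other genes with statistics (Pkm, Eno2, Pdha1, Cs, Got1 and the shuttle genes among them) stand outside that rule and were chosen after their values were seen. On counts simulated for PV against EXC over 15120 genes, the fit recovered 10.4% of genes changed 1.5-fold, 43.3% at 2-fold and 65.2% at 4-fold, with 3 false calls. Among genes at 20 CPM or more it recovered 21.4%, 84.8% and 95.8%. Only 67, 67 and 66 genes were changed at these folds, far fewer than were called in the data, and no pool difference was simulated. The rates and the false calls therefore need not hold for the data. At 100 CPM the counting error was 11.7% in the shallowest and 2.56% in the deepest library. Alternatives were other scalings, filters, DESeq2 1.42.0, pool in the model, single pools and leaving out libraries. Replicates of a group differed by more than counting error in all 60 pairs.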

Additional observations from a re-analysis of the deposited data

Results flagged for a closer look

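A library stood apart from the other 5 of its group in 13 of 184 groups of levels or shares, by the gap to its nearest neighbour over the group's range (above Dixon's 95% critical value). About 9.2 such groups arise by chance. EXC replicate 3 was low for Cs (54.0 CPM, the others at least 181), Suclg1 (9.71 CPM) and Sdha (164 CPM, the others at least 421), and high for the Pfkp share of phosphofructokinase (37.2%). SST replicate 6 was high for Aldoa (512 CPM) and Tpi1 (135 CPM), SST replicate 2 for Suclg1 (49.9 CPM), and SST replicate 3 low for Sucla2 (65.4 CPM). VIP replicate 6 was low for Ldha (27.3 CPM). PV replicate 2 was high for Sucla2 (212 CPM) and low for Sdhc (99.2 CPM). Mpc1 and Suclg2, which lie near the detection limit, were high in EXC replicate 6 (2.68 CPM) and PV replicate 1 (3.54 CPM).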

How the results depend on the processing

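PV against EXC gave 26 to 29 genes higher and 3 to 3 lower when each library was left out, and SST against VIP 14 to 21 higher and 1 to 1 lower. No paired analysis was possible because the replicate numbers were given in accession order and pair no libraries. Depth limits low genes most: at 10 CPM the counting error was 37.0% in the shallowest library. Leaving out EXC replicates 2 and 6, or PV replicates 1 and 6, was chosen after seeing the data. Where values changed, the cause was not tested. For fits with libraries left out, the shares of all genes called are not given.

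SST against EXC gave 15 genes higher and 2 lower with no filter, 26 and 0 with pool in the model, 2 lower without EXC replicate 3 and SST replicate 5, and 8 to 13 higher and 1 to 2 lower (without EXC replicate 3 or 5) with a library left out. VIP against EXC gave 3 higher with DESeq2's size factors, 4 with plain shares, 4 with DESeq2's Wald test, 2 with no filter, 12 with pool in the model, 2 without the sex term and 2 without EXC replicates 2 and 6. Its lower count was 7 with plain shares, 0 with pool in the model and 0 within POOL7099, where the lone EXC library is assumed to vary like the VIP libraries and the count says nothing about a dependence on pool. Leaving out a library gave 1 to 3 higher (EXC replicates 1 and 6 and VIP replicate 2 changed it) and 6 to 18 lower (EXC replicate 1 and VIP replicates 1 and 3). PV against SST gave 1 higher and 12 lower with pool in the model, and 17 to 26 higher and 2 to 2 lower with a library left out. PV against VIP gave 1 higher and 4 lower with pool in the model, and 2 lower with DESeq2's size factors, with its Wald test, and without EXC replicate 3 and SST replicate 5. Leaving out a library gave 27 to 29 higher and 1 to 2 lower (EXC replicate 3, PV replicate 4 and VIP replicate 6). SST against VIP gave 2 lower with pool in the model and 2 within POOL7098. The joint test gave 32 to 35 genes and the sex test 0 to 0 with a library left out.

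The ratio of TCA cycle to glycolysis by geometric mean was 1.95 for PV, 1.55 for SST, 1.395 for VIP and 1.37 for EXC. With lactate dehydrogenases and pyruvate genes counted in, it was 1.74 for PV, 1.504 for SST, 1.53 for VIP and 1.198 for EXC, and PV then overlapped SST and VIP. The highest EXC library, at 1.385, also passed the lowest of SST (1.348) and of VIP (1.349). Log2 fold changes that changed sign with pool in the model were, for PV against SST, Pfkm -0.88, Aldoa -1.95, Aldoc -3.71, Eno1 -1.92, Eno2 -0.93, Ldhb -0.38, Mdh1 -0.38 and Tigar -0.54. For PV against VIP they were Pfkm -0.044, Aldoa -0.95, Pgk1 -1.48, Eno1 -0.28 and Mdh2 -0.0084, and for SST against EXC Pfkl 0.30 and Aldoc 4.29. For VIP against EXC they were Pfkm 1.20, Aldoa 1.10, Eno1 0.75, Eno2 0.39, Ldhb 1.55 and Eno3 -0.18, and within POOL7099 Pfkl 0.55, Aldoa 1.39, Eno1 1.21 and Eno2 0.68. Pfkfb2, not called in PV against EXC at -0.12, was 0.55 with pool in the model, 0.55 within POOL6188, 0.50 without EXC replicate 3 and SST replicate 5, and from -0.31 to 0.50 with a library left out, the latter without EXC replicate 3.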
